A study of Mus musculus with 16 samples.

Results

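The regions described are all peaks on chromosomes 1 to 19 in the list of single-strand break sites of wild type mouse embryonic stem cells treated with talazoparib. There were 15343 of them, among 15544 peaks in that list and 103545 peaks in the 4 lists of the study. They were chosen by chromosome alone, and no other list was used for any value. The cells were of strain C57BL/6JRj, carried the wild type genotype for Tdg, and grew in serum-free 2i medium with LIF. They were exposed to 5 nM talazoparib for 24 h. The protocol, given alike for all cells of the study, also has 4-OHT applied to excise a Tdg minigene. The sources do not say whether wild type cells received it. The labelled cell type could not be checked against marker expression, since only genomic DNA was sequenced.

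Single-strand break sequencing labels nicks. DNA polymerase I adds digoxigenin-labelled nucleotides at the free end of a nicked strand, an antibody pulls the labelled fragments down (the immunoprecipitate, IP), and unselected DNA is sequenced as input. Single-strand breaks arise as intermediates of base excision repair, at topoisomerase sites and during replication. Poly(ADP-ribose) polymerase 1 binds such breaks and calls in repair proteins. Talazoparib blocks its activity and holds the enzyme on DNA. The list addresses where labelled breaks lay in cells under the inhibitor, and 3 IP libraries and 1 input library stand behind it. The authors pooled the IP libraries into 1 value per peak, so no value has a spread between replicates, no library could be set against another, and no test was possible. All intervals are 95% intervals and cover counting error only.

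The pooled IP held 83.8 M tags and the input 24.5 M. The unit used below is the authors' normalized tag count, tags per 10000000 IP tags, in which 1 tag is worth 0.119. Tags spread evenly over the sequenced genome would give 3.78 normalized tags and 9.25 input tags per kb. The peaks covered 11.3 Mb, 0.473% of the autosomes, and held 1.27% of IP tags and 0.209% of input tags. Each peak was put by its centre into 1 class: promoter (1000 bp upstream to 100 bp downstream of an annotated start), gene body, or distal.

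The following sequences are the centres of the first-ranked peak of each class by normalized tags per kb, among peaks with at least 3 input tags, read on the + strand of GRCm38. They are shown because these peaks lead the classes and differ in composition. Capitals mark CpG dinucleotides.
Mrpl45 promoter peak, chr11:97315476-97315715: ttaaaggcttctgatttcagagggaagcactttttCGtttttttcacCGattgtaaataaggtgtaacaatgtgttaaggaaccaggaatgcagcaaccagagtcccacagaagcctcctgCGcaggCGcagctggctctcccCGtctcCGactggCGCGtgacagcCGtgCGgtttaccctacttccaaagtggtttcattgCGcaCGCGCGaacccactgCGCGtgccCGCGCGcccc
Angptl6 gene body peak, chr9:20878125-20878364: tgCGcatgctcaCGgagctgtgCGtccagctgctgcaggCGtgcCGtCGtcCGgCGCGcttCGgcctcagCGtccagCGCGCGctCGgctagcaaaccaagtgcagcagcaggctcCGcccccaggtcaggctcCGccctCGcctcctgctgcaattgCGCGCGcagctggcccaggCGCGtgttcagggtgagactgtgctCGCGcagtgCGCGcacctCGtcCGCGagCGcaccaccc
Distal peak nearest Kcnh5, chr12:74804502-74804741: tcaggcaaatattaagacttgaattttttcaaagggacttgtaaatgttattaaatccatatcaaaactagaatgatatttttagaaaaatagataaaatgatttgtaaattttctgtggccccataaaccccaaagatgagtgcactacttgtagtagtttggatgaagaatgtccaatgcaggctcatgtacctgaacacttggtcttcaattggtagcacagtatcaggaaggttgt
The Mrpl45 stretch holds 19 CpG in 240 bases at 55.4% GC. The Angptl6 stretch holds 31 CpG at 71.7% GC. The distal stretch holds 0 CpG at 33.8% GC, so the highest distal peak did not share the CpG-rich make-up of the other classes' leading peaks.

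The next sequences are upstream flanks of 3 of the 20 genes with the highest totals, taken from RefSeq's promoter entries on GRCm38.p6 and written on each gene's own strand. They are shown because each lies in a strong promoter peak. Of the 20 genes, 17 had an entry.
Ptma promoter, chr1:86526307-86526546, + strand: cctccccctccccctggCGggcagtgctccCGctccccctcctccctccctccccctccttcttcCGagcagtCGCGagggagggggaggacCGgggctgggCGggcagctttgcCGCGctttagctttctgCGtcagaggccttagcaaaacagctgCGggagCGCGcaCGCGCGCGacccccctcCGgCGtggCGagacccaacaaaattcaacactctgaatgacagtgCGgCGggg
Kpnb1 promoter, chr11:97187903-97188142, - strand: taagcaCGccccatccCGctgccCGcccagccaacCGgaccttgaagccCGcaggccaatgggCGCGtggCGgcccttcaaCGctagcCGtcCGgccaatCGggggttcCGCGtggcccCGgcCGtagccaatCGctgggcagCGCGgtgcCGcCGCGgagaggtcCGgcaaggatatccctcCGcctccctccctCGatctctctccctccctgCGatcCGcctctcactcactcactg
Sertad2 promoter, chr11:20542916-20543155, + strand: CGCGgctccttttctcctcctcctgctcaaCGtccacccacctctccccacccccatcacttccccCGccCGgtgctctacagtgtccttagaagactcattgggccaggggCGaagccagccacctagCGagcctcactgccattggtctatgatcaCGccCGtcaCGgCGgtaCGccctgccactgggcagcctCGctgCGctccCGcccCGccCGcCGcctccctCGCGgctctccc
These stretches held 22, 27 and 20 CpG in that order, at 69.2%, 70.4% and 68.3% GC. All of them contain the GC box letters GGGCGG on one strand or the other.

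Promoters carried the most signal. They held 6157 peaks, 40.1% of all (exact binomial interval 39.4 to 40.9), and 60.5% of the normalized tags in peaks, although promoters make up 3.73% of the autosomes. Gene bodies held 5797 peaks, 37.8% (37.0 to 38.6), with 26.6% of the tags, on 46.0% of the autosomes. Distal sites held 3389 peaks, 22.1% (21.4 to 22.8), with 12.9% of the tags, on 50.3% of the autosomes. Peaks therefore came at 68.9 per Mb of promoter, 5.26 per Mb of gene body and 2.81 per Mb of distal DNA. The intervals take peaks as independent of each other, which neighbouring peaks may not be.

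Promoter peaks were also the densest. Their median was 11.6 normalized tags per kb (quartiles 8.40 and 16.5), 3.07 times the IP's genome mean. Gene body peaks had a median of 6.56 (5.72 and 9.11) and distal peaks 6.32 (5.72 and 7.99), 1.74 and 1.67 times the mean. The quartile ranges of gene body and distal peaks overlapped almost wholly, while the lower quartile of promoter peaks lay above the upper quartile of distal peaks. Promoter peaks were longer, with a median of 791 bp against 500 bp in both other classes. A length of exactly 500 bp was listed for 6820 peaks, 44.5% of all.

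The input column puts a limit on these values. A listed peak had a fold over input of at least 4, so a region of modest IP density entered the list only where the input was low. The median peak had 2 input tags, and 9286 peaks (60.5%) had fewer than 3. The lowest listed input value, 0.5 tags, stood beside 3425 peaks (22.3%). The sources do not say whether it stands for an input of 0. Fewer than 3 input tags were found at 32.5% of promoter peaks, 75.9% of gene body peaks and 85.2% of distal peaks. Input density at promoter peaks had a median of 0.553 times the input's own genome mean, against 0.216 times in gene bodies and at distal sites. Among the 6057 peaks with at least 3 input tags, promoters held 68.6% of peaks and 74.6% of tags. Among peaks with a fold of at least 6, promoters held 28.9% of peaks and 51.2% of tags, so the order of the classes by number of peaks turned with that choice and gene bodies led with 43.4%. Promoter peaks had the lowest median fold of the classes, 5.79, against 7.75 in gene bodies and 8.48 at distal sites. Class order by fold thus ran opposite to class order by IP density.

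**Figure D1:**
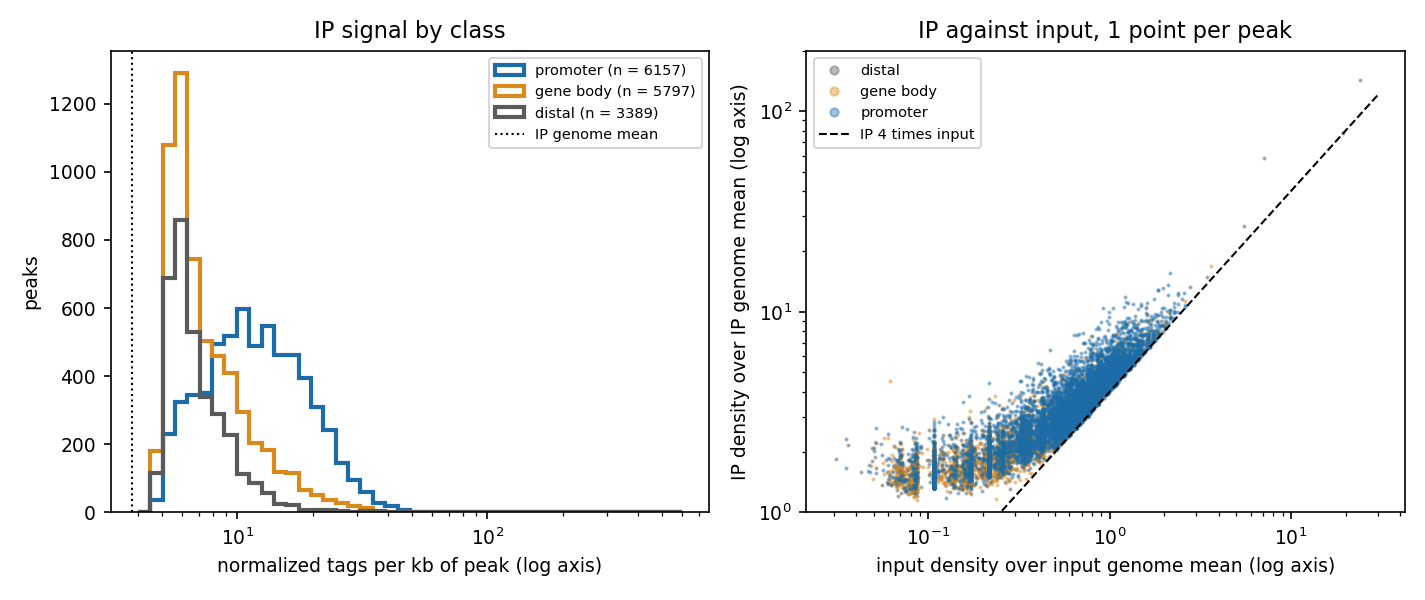
Left, number of peaks against normalized tags per kb of peak (log axis) for promoter, gene body and distal peaks, with the IP genome mean of 3.78 as a dotted line; promoter peaks lie furthest to the right, with a median of 11.6. Right, IP density against input density of every peak, each over its own genome mean (log axes); all peaks lie on or above the dashed line where IP density is 4 times input density, which is the lowest fold in the list.

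IP and input density rose together over the 15343 peaks, with a Spearman correlation of 0.915 for tags per kb. Peaks share the same pooled libraries, and the lowest fold of 4 by itself ties the values together. The Spearman correlation of IP tags per kb was 0.634 with CpG per 100 bp, 0.578 with GC content and -0.308 with soft-masked repeat content. Within a class the correlation with CpG was 0.484 for promoter peaks, 0.423 for gene body peaks and 0.077 for distal peaks. The part of base composition and of input density in the class differences was not tested.

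The tags were unevenly shared among peaks, though no small group of peaks held most of them. The highest 1534 peaks by normalized tags, 10% of the list, held 33.9% of all tags in peaks, and the highest 153 held 6.67%. Normalized tags per peak ran from 2.51 to 270.9 with a median of 5.07. IP density was at least 4 times its genome mean at 30.9% of promoter peaks, 6.30% of gene body peaks and 2.01% of distal peaks.

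Signal centred on transcription starts. Of all peaks, 7241 (47.2%) had their centre within 1 kb of a protein-coding start, and these held 69.8% of the tags. The 250 bp before a start held 2630 peaks and the 250 bp after it 2916, with medians of 12.2 and 12.1 normalized tags per kb. Density fell with distance on both sides, to 7.39 between 750 and 1000 bp upstream and 7.93 over the same distance downstream. Input moved along with it: the median was 4.5 input tags within 250 bp of a start on either side and 1.5 tags at 750 to 1000 bp. Between 1 and 10 kb from a start the median peak held 6.40 normalized tags per kb, beyond 50 kb 6.20.

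**Figure D2:**
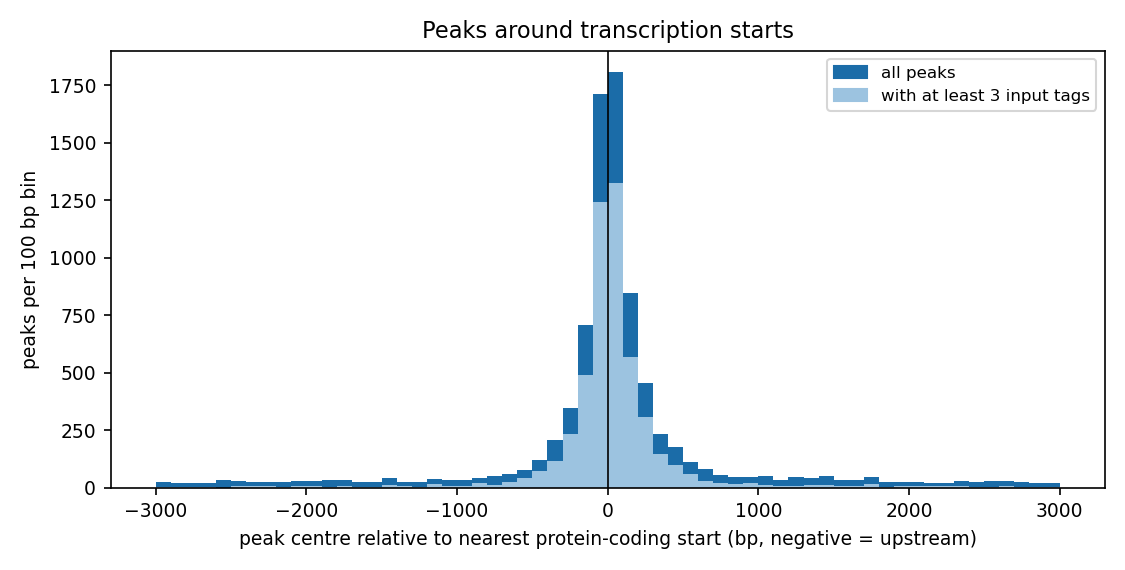
Number of peaks per 100 bp bin against the distance of the peak centre from the nearest protein-coding transcription start (bp, negative is upstream), for all peaks (dark) and for peaks with at least 3 input tags (light). Both rise to a maximum at the start and are nearly even on its upstream and downstream sides, as the 2630 and 2916 peaks within 250 bp show.

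The strongest promoter peak per kb lay at Mrpl45, which encodes a protein of the mitochondrial ribosome. It spanned chr11:97315350-97315981, with its centre 51 bp upstream of the start, and held 58.95 normalized tags per kb (exact Poisson interval 52.6 to 65.9) over 12.5 input tags, a fold of 7.28 (4.04 to 13.3). Vps26c, a subunit of an endosomal sorting complex, followed with 51.2 per kb over 25 input tags at chr16:94526058-94527342. Alkbh5, an RNA demethylase, had 49.6 per kb over 27.5 input tags at chr11:60537056-60538562. The intervals of Mrpl45 and Vps26c overlap, so their order is not settled by the counts.

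The other promoters of the leading 10 were those of Fkbp2, an endoplasmic reticulum peptidyl-prolyl isomerase (48.7 per kb), Cactin, a splicing factor (48.6), Eif5a, a translation factor (47.0), Ocel1 (46.8), P4hb, the protein disulfide isomerase (45.96), Exoc8, an exocyst subunit (45.8), and Ppp2r5a, a regulatory subunit of protein phosphatase 2A (44.6). The peak at Exoc8 also covers the promoter of Sprtn, whose product is a protease for proteins crosslinked to DNA, and the value belongs to both genes. These 10 promoters differed little, from 44.6 to 58.95 per kb. Input density was 1.21 to 2.56 times its genome mean at all of them. Among promoter peaks with fewer than 3 input tags the highest were those of Cyb561d1 (18.0 per kb), Mboat2 (17.6) and Romo1 (16.7), the last shared with the promoter of Nfs1. They ranked 1463rd, 1558th and 1825th among all 15343 peaks, so the promoter ranking is not led by peaks with almost no input.

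Gene body peaks were mostly weak and intronic, and those in the first kb inside a start had a higher median density than those further in. Introns held 4530 of them (78.1%) with a median of 6.32 normalized tags per kb, against 8.70 in the 635 peaks in coding exons and 8.82 in the 431 in untranslated regions. Input moved the same way, with a median of 1 tag in introns and 2.5 tags in coding exons and in untranslated regions. Fewer than 3 input tags stood beside 81.1% of intron, 55.4% of coding exon and 53.8% of untranslated region peaks. The 1558 peaks between 100 bp and 1 kb inside a gene held 45.1% of the tags of the class at a median of 9.78 per kb. The 2185 peaks 1 to 10 kb inside had a median of 6.22, and the 1792 peaks 10 to 100 kb inside 6.08. Fewer than 3 input tags were found at 45.4%, 84.0% and 90.2% of these peaks in that order. Counting the first kb inside a start as promoter raised the promoter share to 50.9% of peaks and 72.8% of tags.

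The leading gene body peak lay over coding exon 2 of Angptl6, which encodes a secreted angiopoietin-like protein. It spanned chr9:20877739-20878750, with its centre 1483 bp inside the start, and held 63.8 normalized tags per kb (58.5 to 69.4) over 34 input tags, a fold of 4.65 (3.29 to 6.79). Input there was 3.63 times its genome mean. Ptma, which encodes prothymosin alpha, followed with 42.6 per kb over 12 input tags, in an intron 1377 bp inside a start. Zfp771, a zinc finger gene, had 40.1 over 17 input tags in coding exon 3, 8932 bp inside a start. The leading 3 thus lay beyond the first kb.

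The next 7 gene body peaks lay between 101 and 839 bp inside a start. They belonged to Ckap2, a spindle protein gene (37.2 per kb), Gsk3b, which encodes the kinase inhibited in 2i medium (36.9), Unk, an RNA-binding zinc finger gene (34.7), Klhl24, an adaptor of a ubiquitin ligase (33.97), Stub1, a ubiquitin ligase acting with chaperones (33.8), Macrod1, an ADP-ribose hydrolase (33.8), and Zbtb11 (33.6). All 10 leading gene body peaks had input above its genome mean. The highest with fewer than 3 input tags was at Nup214, a nuclear pore gene, with 17.1 per kb over 0.5 input tags. Its fold of 73.95 was the highest in the list, and its counting interval ran from 6.54 to 1478. Sned1 followed with 16.3 per kb over 2.5 input tags.

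Distal peaks were led by a few sites of extreme density. The highest, at chr12:74804371-74804871 and 372.7 kb from the start of Kcnh5, held 541.8 normalized tags per kb (519.7 to 564.5), 143 times the IP mean. It also held 111 input tags, 24.0 times the input mean, so the fold was 5.98 (4.94 to 7.30). A peak 77.7 kb upstream of Vmn1r2 at chr4:3089348-3089848 had 294 per kb over 89.5 input tags, 19.3 times the input mean. Soft-masked repeat made up 71.9% of it and 38.7% of the peak nearest Kcnh5. A peak 90.96 kb beyond the start of Wls at chr3:159939247-159939574 had 221 per kb over 21.5 input tags, and 90.9% of it was soft-masked repeat. It ended 100.1 kb from the end of the chromosome. Distances to chromosome ends, here and below, count unsequenced bases of the reference too, so the last sequenced base may be closer. Another peak, 30.4 kb from the start of Gm21060 and 164.6 kb from the end of chromosome 19, had 100.8 per kb over 25.5 input tags. Repeat made up 9.78% of it. These 4 sites held the highest densities of all 15343 peaks, and input was 5.51 to 24.0 times its mean at each.

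The remaining leading distal peaks were far closer to the other classes. They lay nearest Zfp608 (56.5 per kb), Isl1 (50.1), Mga (38.3), Mllt6 (36.5), Kcnn1 (35.5) and Tle3 (34.9). Those at Mllt6, Tle3 and Kcnn1 lay 1.5, 1.8 and 2.3 kb upstream of a start, just outside the promoter window. A search of the 300 central bases against the genome, contigs and mitochondrial genome found a similar copy (at least 90% identity over 200 bases) for 1 of the 30 leading peaks, the one near Zfp608, which had 3. The search sees assembled sequence only, so it cannot show that a site is single-copy. It found no copy of the 4 densest distal sites, where input was 5.51 to 24.0 times its mean. Copy number was not tested. Among distal peaks with fewer than 3 input tags the highest lay nearest Gm21836 (15.7 per kb), C330021F23Rik (13.8) and Btg2 (13.8), and the first of these had 4 similar copies.

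Dinucleotide repeats were found more often in distal peaks than in promoter peaks. The run CACACACACACA, searched on both strands in the 300 central bases, was found in 749 distal peaks (22.1%) and 831 gene body peaks (14.3%), but in 1.74% of promoter peaks. It was found in 4.52% of the 7986009 windows of the same length that tile the autosomes. Distal peaks with the run had a median of 7.04 normalized tags per kb and those without it 6.20, with a median of 1 input tag in both. In gene bodies the medians were 6.88 and 6.49. The run GAGAGAGAGAGA was found in 6.02% of distal, 3.38% of gene body and 0.536% of promoter peaks, against 2.00% of all windows. The run AAAAAAAAAAAA was found in 3.22%, 2.57% and 1.80%, against 3.54%. Both dinucleotide runs were thus above the share of all windows in distal and gene body peaks and below it in promoter peaks, and the A run was below it in every class. A match describes letters in the window and no more.

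Letters of known promoter elements were above the share of all windows in promoter peaks for some elements and below it for others. The GC box GGGCGG was found in 65.5% of promoter peaks, 23.7% of gene body peaks and 13.5% of distal peaks, against 2.94% of all windows. CCGGAAG, the ETS letters, was found in 14.5%, 3.71% and 3.28%, against 0.867%. The letters CCAAT were found in 32.6%, 22.9% and 27.0%, below the 40.1% of all windows. The letters TATAAA were found in 3.87%, 7.35% and 9.68%, against 26.8%. Promoter peaks with a GC box had a median of 13.1 normalized tags per kb over 5 input tags, and those without it 9.42 over 3. In gene bodies the medians were 9.10 with and 6.27 without. GC content moved along: gene body peaks with a GC box had a median GC of 60.1% and those without it 50.2%.

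Base composition separated the classes. Median GC was 61.0% in promoter peaks, 51.9% in gene body peaks and 48.9% in distal peaks, while the autosomes as a whole stood at 41.9%. Median CpG per 100 bp was 6.89, 1.80 and 1.198, against 0.851 over the autosomes. Repeats made up a median of 6.13%, 12.6% and 26.5% of a peak, and 33.5% of all autosomal sequence.

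Of 20807 protein-coding genes on the autosomes, 6073 (29.2%) had a promoter peak, and 4415 (21.2%) had one with at least 3 input tags. With the peaks assigned to single genes, 8054 genes (38.7%) had a promoter or gene body peak. Promoter peaks alone were assigned to 4215 of these, gene body peaks alone to 2806 and both to 1033. Most, 6249 (77.6%), had 1 peak. Their median total was 9.54 normalized tags (quartiles 5.19 and 16.5). A gene without a listed peak is not shown to lack breaks.

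CpG content of the promoter went with the share of genes that had a peak. CpG was counted at the outermost start of a gene, while a promoter peak could lie at any of its starts. The 2 values can thus belong to different promoters of a gene. Of 5432 genes with fewer than 1 CpG per 100 bp of promoter, 4.62% had a promoter peak, and of 2037 genes with more than 6, 56.7% did. The steps between were 16.5%, 37.8% and 51.1%. Median promoter totals of the genes with a peak were 7.81, 6.80, 9.19, 12.7 and 15.2 from the lowest bin to the highest, so they did not rise at every step. With at least 3 input tags required, the shares ran from 2.76% to 49.7%. Genes whose start faced a divergent start within 1 kb had a promoter peak in 912 of 1448 cases (63.0%), against 26.7% of the others. Among promoters with more than 4 CpG per 100 bp the shares were 69.0% and 49.0%. A divergent pair can share 1 peak, which then counts for both genes.

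**Figure D3:**
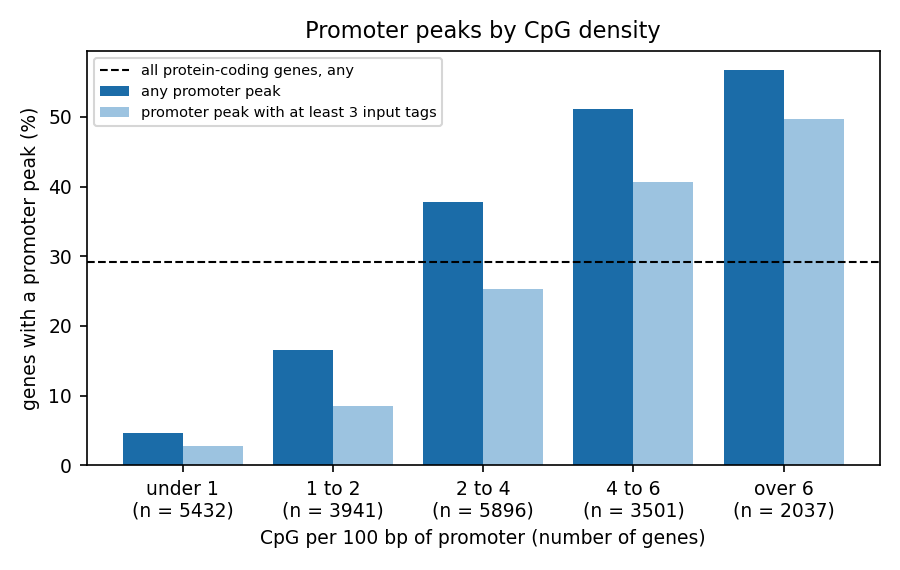
Share of protein-coding genes with a promoter peak at any of their starts (%, vertical axis) by CpG per 100 bp of promoter at the outermost start (horizontal axis, number of genes below each bin), for any promoter peak (dark) and for one with at least 3 input tags (light). The share rises from 4.62% in the lowest bin to 56.7% in the highest, across the dashed line at 29.2% for all genes.

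Gene length went with the share of genes that had a peak. A gene body peak was assigned to 5.83% of genes under 5 kb, 10.9% of those of 5 to 20 kb, 24.9% of those of 20 to 100 kb and 41.9% of longer ones. The Spearman correlation between length and number of peaks was 0.317 over genes with a peak, and between length and total 0.008 over the same genes, which leaves out the many genes with no peak. The share with a promoter peak also differed with length, at 16.1%, 26.9%, 36.9% and 33.1% in the same order.

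By total, the signal was spread over many genes: the top 20 held 1.89% of all tags assigned to protein-coding genes and the top 100 held 6.34%. Ppp2r3d, a regulatory subunit gene of protein phosphatase 2A, came first with 176.1 normalized tags (exact Poisson interval 167.3 to 185.4) in 4 peaks over 49 input tags. Its main peak, chr9:124422635-124426078, was 3443 bp long, held 137.9 normalized tags and lay by a start at the far end of the gene, which ends 118.2 kb from the end of the chromosome. Mnt, a repressor that pairs with MAX, followed with 142.3 (134.4 to 150.6) in 3 gene body peaks over 79.5 input tags. Its main peak, chr11:74830027-74833305, held 99.4 and was centred 746 bp inside a start. The intervals of these genes do not overlap each other or those of any lower-ranked gene.

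Gm20388 came next with 116.3 normalized tags, the sum of 24 weak peaks over a gene model of 4435 kb. The model spans other genes, and none of its own peaks held more than 9.43. Ing1, a reader of histone H3 methylation, had 113.8 (106.7 to 121.3) in 1 peak of 3779 bp at chr8:11554960-11558739, over 56 input tags. Ptma had 110.5, of which 89.2 came from its promoter. Crlf2, a cytokine receptor gene, had 94.7 in 1 peak. Kpnb1, which encodes importin beta, had 92.8 (86.4 to 99.6) in 1 promoter peak of 2635 bp over 30.5 input tags. From Gm20388 to Ptma and from Crlf2 to Mxi1 neighbouring intervals overlap, so the order within these stretches is not settled.

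Next was H2-DMa, a gene of antigen loading on MHC class II, with 92.4, but 85.2 of it lay in a peak that also covers the promoter of Brd2, which encodes a reader of acetylated histones. If every gene that holds a peak is credited with it, Brd2 enters the top 20. Sertad2 had 87.5, in promoter peaks of 41.3 and 43.1 at separate starts. Csf2ra, a cytokine receptor gene 203.1 kb from the end of chromosome 19, had 85.6, and Cactin 85.1. Gsk3b had 83.3, of which 70.7 lay in 1 peak centred 202 bp inside its start, in the untranslated part of exon 1.

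The remaining genes of the top 20 were Kat6b, a histone acetyltransferase (82.2), Mast3, a kinase (81.8), Klf16, a zinc finger factor (81.2), Hdgfl2 (79.8), Gse1 (79.3), Klf10, a zinc finger factor (79.1), Alkbh5 (74.7) and Mxi1, another MAX partner (74.0). Promoter peaks made up most of the total in 13 of the 20, and 6 had gene body peaks only. Among the latter, the main peaks of Mnt, Ing1, Crlf2 and Gsk3b spanned the gene's outermost start. They counted as gene body peaks because their centres lay outside the promoter window. A single peak made the whole total in 7. Input density at the highest peak was at or above its genome mean in 16 of the 20, and none of the 20 had a similar copy of that peak's centre in the assembled sequence. Input tags at these genes ran from 25 for Hdgfl2 to 79.5 for Mnt.

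**Figure D4:**
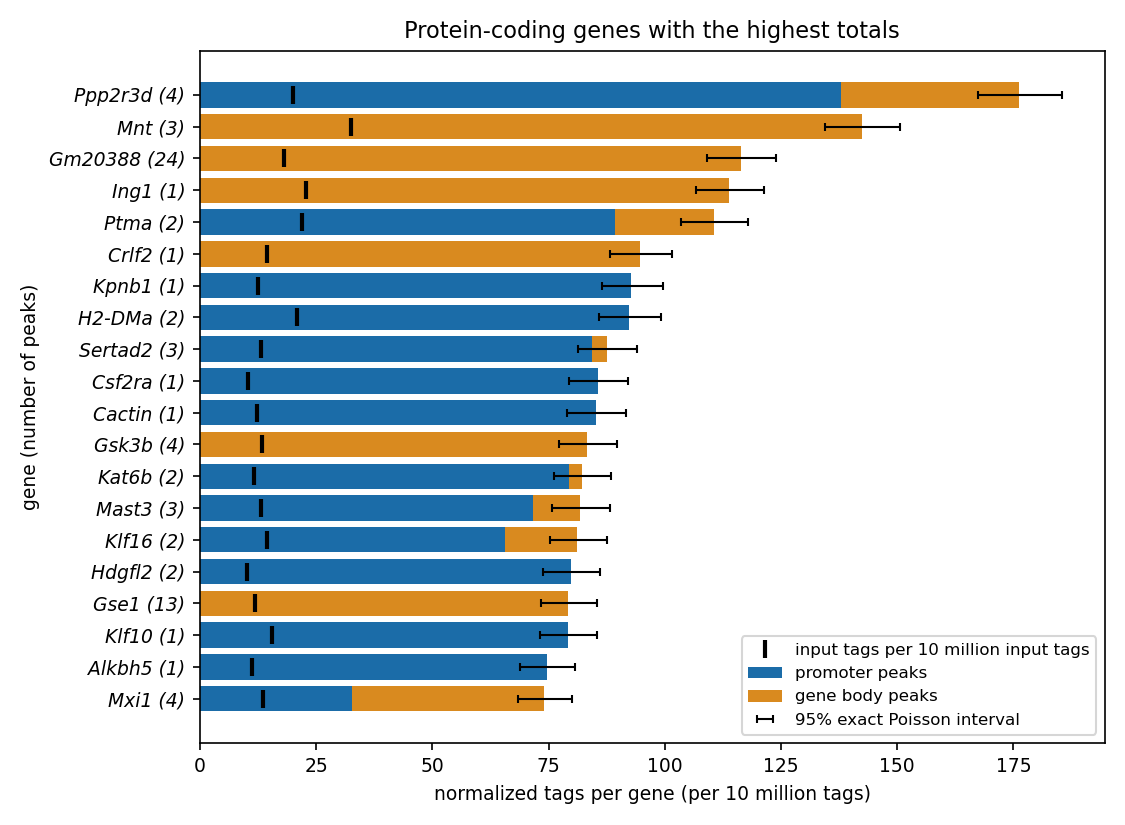
Normalized tags per gene for the 20 protein-coding genes with the highest totals (horizontal axis, number of peaks in brackets after each gene), split into promoter and gene body peaks. Error bars are 95% exact Poisson intervals, and ticks show input tags per 10000000 input tags. Ppp2r3d leads with 176.1. Input ticks lie at 32.4 or less, below every bar, which the lowest listed fold of 4 fixes in advance.

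By number of peaks the order was different. Gm20388 had 24, Gse1 13, Rnf220, a ubiquitin ligase gene, 10, and Slc39a11, a zinc transporter gene, and Fgfr2, a growth factor receptor gene, 9 each. Their peaks were weak. The 13 peaks of Gse1 held 2.68 to 14.7 normalized tags and all lay in introns. The 9 peaks of Fgfr2 held 2.57 to 4.65 each over 0.5 or 1 input tag, and its gene model, like that of Gm20388, is very long at 2961 kb. Gm20388 and Gse1 left the top 20 when at least 3 input tags were required.

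Gene lists were read against the 29.2% of all protein-coding genes with a promoter peak, and the 21.2% with one of at least 3 input tags. Lists of translation, chaperone, RNA processing, cell cycle, glycolytic and ribosomal protein genes stood above both. Translation factors had a promoter peak in 24 of 32 members (22 with at least 3 input tags), led by Eif5a with a total of 68.1 normalized tags and Eif1 with 43.2. Chaperones had one in 16 of 22 (all 16 with at least 3 input tags), led by Hspa8 with 39.3 and Hsp90ab1 with 38.5. RNA processing genes had one in 21 of 30 (20), led by Hnrnpl with 52.4, Ncl with 49.4 and U2af2 with 48.2. Cell cycle genes had one in 21 of 31 (16), led by Cdc25a, the phosphatase that activates cyclin-dependent kinases, with 33.2. Glycolytic genes had one in 11 of 19 (7), led by Pgam1 with 38.0 and Pkm with 31.4. Ribosomal protein genes had one in 43 of 80 (37), led by Fau with 34.4 and Rpl22 with 25.7.

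Repair genes also stood above the share of all genes. Base excision and strand break repair genes had a promoter peak in 14 of 29 members, 9 of them with at least 3 input tags. Ung, the uracil glycosylase, had the highest total with 51.5 over 21.5 input tags, then Pole, a replicative polymerase, with 36.2, Tdp2, which removes trapped topoisomerase, with 31.6, and Ogg1, the oxoguanine glycosylase, with 21.5. Recombination and Fanconi genes had one in 16 of 30 (13), led by Fancc with 42.0 and Blm, a helicase, with 19.3. No peak was assigned to Tdg itself or to Xrcc1, the scaffold of strand break repair. Parp1, the main target of the drug, had 1 gene body peak of 5.25 normalized tags over 3 input tags. Tdg, Xrcc1 and Parp1 were picked for their roles after their values were seen.

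Chromatin genes were mixed. Polycomb complex genes had a promoter peak in 18 of 29 members (15 with at least 3 input tags), led by Cbx7 with 46.1 in 5 peaks and Rbbp4 with 37.1. DNA methylation and demethylation genes had one in 8 of 22 (4), near the share of all genes. A peak of either kind was assigned to 17 of these 22 (77.3%), against 38.7% of all genes. Their highest totals lay in gene bodies: Trim28, a corepressor, had 53.1 and Mbd3, a subunit of the NuRD complex, 39.7, while Dnmt1, the maintenance methyltransferase, had 28.2 at its promoter. Replication-dependent histone genes had a promoter peak in 16 of 67 (23.9%), 14 of them with at least 3 input tags (20.9%). The share with any promoter peak was below the 29.2% of all genes. The share with at least 3 input tags was at the 21.2% of all genes. Hist1h4a had the highest total with 25.4.

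Genes of the naive state were at the share of all genes for promoter peaks and above it for any assigned peak. Naive pluripotency genes had a promoter peak in 7 of 24 members (29.2%), 5 of them with at least 3 input tags. A gene body peak was assigned to 13 of the 24, and a peak of either kind to 16 (66.7%), against 38.7% of all genes. That share has no input limit. Dppa2, Dppa5a, Lin28a, Tfcp2l1 and Zfp42 had 0.5 input tags each, and Pou5f1 and Nr5a2 had 2. No peak was assigned to Nanog, Sox2, Sall4 or Prdm14. The share was not particular to this list. It was higher for polycomb complex (89.7%) and FGF-ERK feedback genes (81.8%), among others, and lower for Wnt pathway (45.2%) and imprinted genes (41.0%), among others. Klf2 had 37.6 in 1 gene body peak over 17.5 input tags, Klf4 had 32.4, and Gbx2 had 24.7 in its gene body. The Gbx2 peak was centred 101 bp past the nearest protein-coding start, just outside the promoter window, which ends at 100 bp. The split into promoter and gene body peaks depends on that limit. FGF-ERK feedback genes had a promoter peak in 10 of 22 (8), with Fgfr2 at 30.3, Spred2 at 30.1 and Etv4 at 20.6. The Fgfr2 total came from 9 weak gene body peaks, each over 0.5 or 1 input tag. Wnt pathway genes had a promoter peak in 7 of 31 (6), with Gsk3b at 83.3, Apc at 26.3 and Tcf7l1 at 19.7. Large late-replicating genes had one in 10 of 25 (6), led by Auts2 with 50.2, of which 38.3 lay at a promoter. Imprinted genes had one in 11 of 39 (8), led by Peg3 with 44.8 in its gene body.

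Lists of genes of other lineages and of the germline stood below the share of all genes for promoter peaks. Hox genes had a promoter peak in 3 of 39 members (2 with at least 3 input tags), with Hoxc13 highest at 19.9 and Hoxb9 next at 12.7, both in gene bodies. Developmental regulators, most of them polycomb targets in stem cells, had one in 10 of 50 (7), led by Pax5 with 28.7. Germline genes had one in 4 of 20 (2), with Tex19.1 highest at 8.53. Extraembryonic endoderm genes had one in 4 of 18 (1), led by Lamc1 with 26.2. Fibroblast genes had one in 2 of 15 (0), with Fn1 highest at 7.09. For any assigned peak, developmental regulators (19 of 50) and extraembryonic endoderm genes (7 of 18) were at the 38.7% of all genes, while Hox (5 of 39), germline (4 of 20) and fibroblast genes (3 of 15) were below it.

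CpG content of the promoters, counted at each gene's outermost start, also differed between the lists, and its part in their shares was not tested. The median was highest for chaperones, at 4.81 CpG per 100 bp, and was 4.68 for RNA processing genes, lists of which 16 of 22 and 21 of 30 members had a promoter peak. It was 4.63 for Wnt pathway genes, with a promoter peak in 7 of 31. It was 4.13 for developmental regulators and 3.36 for Hox genes, against 4.00 for translation factors and 3.54 for ribosomal protein genes. Naive pluripotency genes had a median of 2.36 and fibroblast genes 1.63. Members that are neighbours can share a peak, and expression was not measured.

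**Figure D5:**
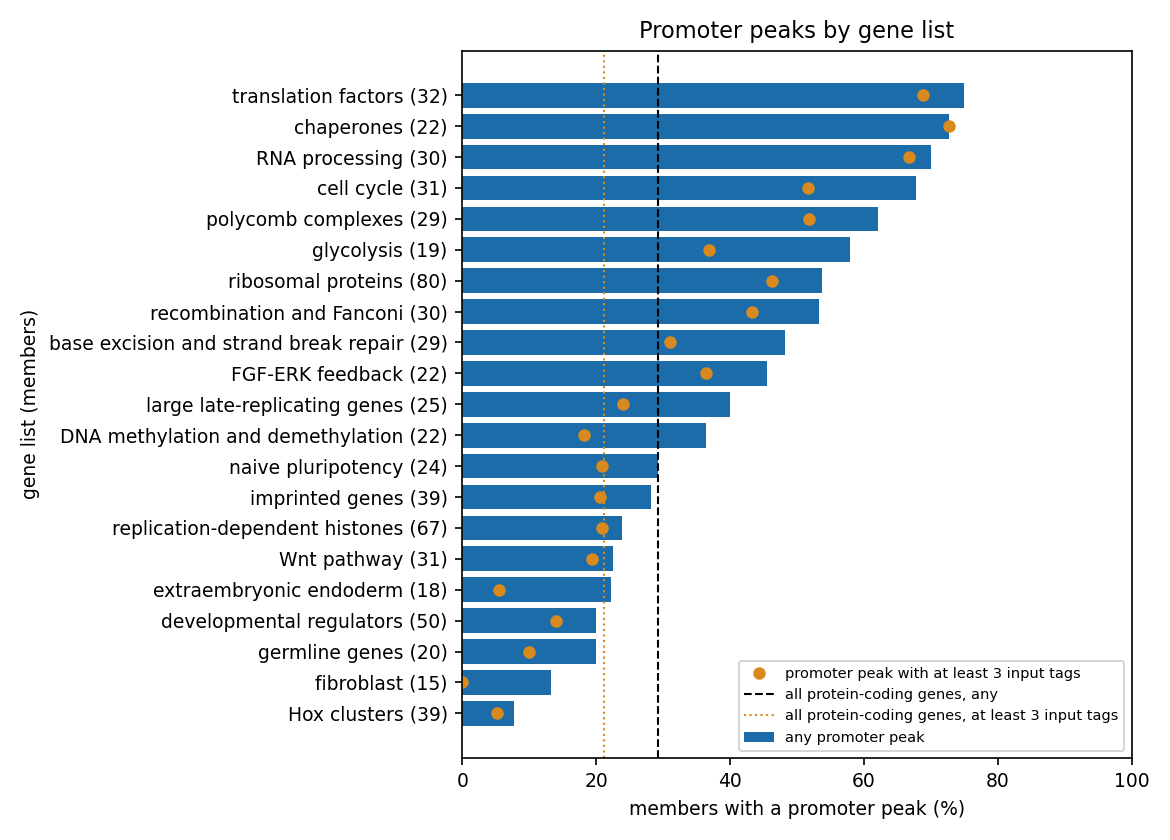
Share of members with a promoter peak (%, horizontal axis) for 21 gene lists (number of members in brackets), as bars for any promoter peak and dots for one with at least 3 input tags, with lines at 29.2% and 21.2% for all protein-coding genes. Translation factors are highest, with 24 of 32 members, and Hox clusters lowest at 7.69%.

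Peaks followed gene density along the genome. Chromosome 11 had the most, 12.3 per Mb, and chromosome 14 the fewest, 4.18. Over the 19 autosomes the Spearman correlation between peaks per Mb and protein-coding genes per Mb was 0.791, chromosomes sharing the same libraries. The share of protein-coding genes with a promoter peak varied less, from 22.2% on chromosome 6 to 39.0% on chromosome 12. Of 2473 windows of 1 Mb, 538 (21.8%) held no peak and 49 held at least 30. The window with most peaks, 56, was chr7:19000001-20000000, which holds Apoe, Relb, Ercc1 and Ercc2. The highest total, 809.5 normalized tags in 51 peaks over 365.5 input tags, was that of chr10:80000001-81000000, with Klf16, Mbd3 and Stk11 among its 55 protein-coding genes.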

How the data were processed

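Genomic DNA of 4 libraries (3 IP, 1 input) of wild type cells under talazoparib was used, and the other 12 libraries entered no result. Tools named, without roles, in the submitters' processing notes are HOMER 4.11, Picard 2.9.2, R 3.6 and Bowtie2 2.3.4.2, and the build there is mm10. Peak calling settings are not given in the sources used here. Per the file headers the deposited table is a HOMER peak list with 1 row per peak for all IP libraries. The authors' normalized tag count and input tags are signal values, in steps of 0.5 tags. Their fold is a ratio of scaled IP tags (a further deposited column, of another unit) to input tags, and recomputing it matched within 1% for 100% of peaks. The deposited p-value and score entered no result. The IP total was estimated from the step of normalized tag counts under 6, and this and the class assignment were tested on simulated data.

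Peaks were annotated by centre with GENCODE M21 (GRCm38.p6, the assembly of mm10). A promoter peak went to the gene with the nearest start, a gene body peak to the containing gene, protein-coding first, with the nearest start, and a distal peak to none. A gene's total is the sum of its peaks' normalized tags. Genes were counted as having a promoter peak if any promoter of theirs holds a peak centre, also where the peak was assigned to a neighbour. Promoter CpG of a gene was counted at its outermost start only. Intervals were exact binomial or Poisson, and for the fold a conditional exact binomial interval. Named were, per class, the 10 peaks with the highest normalized tags per kb and at least 3 input tags and the 3 highest with fewer; the 20 genes with the highest total, 5 each by promoter total, gene body total and number of peaks; and up to 4 members per list by total. A peak that this rule names is not reported here. The members, the 21 gene lists and the rules were chosen with earlier results of these data known, and the GA and A runs after the CA run was seen. Similar copies were searched with BLAST 2.17.0. Python 3.11.15, pandas 2.3.3, NumPy 2.4.6, SciPy 1.17.1 and matplotlib 3.10.9 were used. Alternatives were a minimum of 3 input tags, a fold of at least 6, promoters of 1 kb either side, protein-coding genes only, any overlap in place of the centre, credit to every gene and subtraction of input.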

Additional observations from a re-analysis of the deposited data

Results flagged for a closer look

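Outside the autosomes the list held 182 peaks on chromosome X, 1 on chromosome Y, 2 on the mitochondrial genome and 16 on contigs not placed on a chromosome, and these entered no comparison above. The contig peaks held 13011 normalized tags over 6250 input tags, and the densest had 14206 normalized tags per kb, with folds of 4.04 to 23.2. The mitochondrial peaks held 231 and 166.4 normalized tags per kb over 77 and 38.5 input tags. Chromosome X had 1.11 peaks per Mb with a median of 7.30 normalized tags per kb.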

How the results depend on the processing

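Main values for promoter, gene body and distal peaks, in that order here and below, were 40.1%, 37.8% and 22.1% of peaks, 60.5%, 26.6% and 12.9% of tags, and medians of 11.6, 6.56 and 6.32 normalized tags per kb. With at least 3 input tags they were 68.6%, 23.1% and 8.29% of peaks, 74.6%, 19.2% and 6.13% of tags, and 14.5, 11.9 and 10.4 per kb. With a fold of at least 6 they were 28.9%, 43.4% and 27.7%, then 51.2%, 31.0% and 17.8%, then 8.81, 6.06 and 6.02. With promoters of 1 kb either side they were 50.9%, 27.3% and 21.9%, then 72.8%, 14.4% and 12.8%, then 11.1, 6.15 and 6.32. With protein-coding genes only they were 36.6%, 36.2% and 27.3%, then 56.7%, 26.6% and 16.7%, then 11.99, 6.68 and 6.38. With any overlap they were 48.9%, 29.7% and 21.3%, then 71.8%, 15.9% and 12.3%, then 11.3, 6.20 and 6.32. Scaled IP tags minus input tags gave 23.3, 14.4 and 13.9 tags per kb on the scale of the input library. Promoters held the largest share of tags and the highest median under each of these settings that gives it, and lost the largest share of peaks only with a fold of at least 6. Genes with a promoter peak numbered 6073, and 4415, 2777 and 7682 with at least 3 input tags, a fold of at least 6 and the wider promoter. Of the 20 genes with the highest totals, 18 stayed with at least 3 input tags, 14 with credit to every gene and 19 after subtraction. Leaving out each library could not be run. No paired analysis was possible because the table holds 1 pooled value per peak and no result comes from a test. Input depth is a limit: at its mean density a peak of 500 bp has under 5 tags, so folds of weak peaks rest on few counts.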
